A study of Mus musculus with 51 samples.

Results

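The change in the effect of a Pparg guide between day 0 and day 2 was measured in C3H/10T1/2-SAM cells, a mouse mesenchymal pre-adipocyte line that carries dCas9-VP64 and MS2-P65-HSF1, the parts of a CRISPR activation system. For each gene the difference between cells given a Pparg guide plasmid (P) and cells given an empty vector plasmid (EV) was taken at day 2 and at day 0, and the day 0 difference was subtracted from the day 2 difference. All replicates of these 4 groups entered, which were 22 of the 51 libraries: EV day 0 (n = 5), P day 0 (n = 5), EV day 2 (n = 6) and P day 2 (n = 6). Of 53801 genes in the table, 15803 had enough counts to be tested. The activator proteins and 250 ng of plasmid were common to all groups, and transfection preceded day 0 by 48 hours. Per the labels, every culture received 5 µM rosiglitazone at that point, which sets the day 0 cells before or at the start of the drug and the day 2 cells after it. Time in culture, time since transfection and drug exposure therefore cannot be told apart in this change. The labels do not say whether the cells are 1 clone, and the share of cells that took up the plasmid was not analysed here.

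PPARG is a nuclear receptor that pairs with RXR on DNA and switches on genes of lipid storage when a ligand is bound. Rosiglitazone is a synthetic ligand of PPARG. In pre-adipocytes PPARG and the transcription factor C/EBPα raise each other's expression and together drive the genes of the mature fat cell. In bulk RNA, more fat cells and more RNA per fat cell cannot be told apart.

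Total counts ran from 5.81 M to 115 M per library, with a median of 22.5 M, and levels are given as CPM, counts scaled to a fixed library size after TMM scaling. The lowest total belonged to EV day 0 replicate 3, where the 10 most abundant genes took 24.2% of counts, and the same share was 21% in P day 2 replicate 3. Libraries came from 6 experiments, of which experiments 1, 3, 4 and 5 hold all 4 groups, experiment 2 lacks P day 0 and experiment 6 lacks EV day 0. The experiment number accounted for 56.5% of the first principal component, which held 33.2% of the variance, and it was fitted as a block.

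The guide's own target was higher in P than in EV on both days, and the size of its increase was not shown to change. Pparg (ENSMUSG00000000440, GRCm38 chromosome 6, 115360951 to 115490399, plus strand) stood at 49.5, 47.1, 51.6, 64 and 48.9 CPM in the 5 EV libraries of day 0, and at 164, 130, 328, 324 and 271 CPM in the 5 P libraries. At day 2 it ran from 42.1 to 70.8 CPM in EV with a median of 57.9, and from 187 to 507 CPM in P with a median of 290. P and EV libraries did not overlap on either day. The fitted P minus EV difference was 2.14 ± 0.234 (log2, SE) at day 0, with a Benjamini-Hochberg adjusted p of 0.000675 in edgeR's quasi-likelihood test. On day 2 it reached 2.33 ± 0.209, with an adjusted p of 1.99e-06. The change between the days was 0.196 ± 0.297, with a 95% interval of -0.446 to 0.837 and an adjusted p of 0.979, so the interval leaves out increases above 0.837. Ybx1, a Y-box nucleic acid binding protein that the guide does not target, lay between 556 and 878 CPM in the 22 libraries and its change was 0.0882 (adjusted p = 0.988).

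The 250 bases before annotated starts show what sequence lies there in the target and in the genes with the clearest change. Sequences are RefSeq windows on GRCm38.p6, written 5′ to 3′ on the gene's strand. Capitals mark any match on either strand to DR1, 2 copies of AGGNCA with 1 base between them (the kind of site PPARG and RXR bind), to AGGTCA (1 half-site, which can lie inside DR1) or to TTGCNNAA (a core of C/EBP sites). The guide's own target site was not used here. The table holds 3 Pparg windows, and the one shown is chr6:115421816-115422065 (+), before an internal start. The other 2, which overlap exons and are not printed, begin at 115360894 and 115362099 on chromosome 6, and each holds 1 match to AGGTCA and none to the other patterns. The Acsl1 window is chr8:46470787-46471036 (+) and the Acaa1b window is chr9:119157094-119157343 (-).
Pparg: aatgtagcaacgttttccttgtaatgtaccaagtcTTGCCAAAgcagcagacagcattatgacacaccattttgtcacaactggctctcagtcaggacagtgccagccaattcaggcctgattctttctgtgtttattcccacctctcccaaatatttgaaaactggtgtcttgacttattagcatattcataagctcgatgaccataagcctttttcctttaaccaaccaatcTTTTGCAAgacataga
Acsl1: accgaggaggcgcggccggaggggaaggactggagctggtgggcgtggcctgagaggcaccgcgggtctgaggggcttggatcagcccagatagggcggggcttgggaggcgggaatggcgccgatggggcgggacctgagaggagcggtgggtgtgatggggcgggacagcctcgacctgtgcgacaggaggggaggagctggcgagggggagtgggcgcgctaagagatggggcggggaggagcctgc
Acaa1b: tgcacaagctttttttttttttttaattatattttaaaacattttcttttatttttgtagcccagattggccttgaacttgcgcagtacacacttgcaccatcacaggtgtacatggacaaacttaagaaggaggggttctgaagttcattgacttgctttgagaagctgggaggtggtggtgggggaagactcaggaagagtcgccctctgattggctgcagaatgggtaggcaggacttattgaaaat
The Pparg window shown holds 2 matches to the C/EBP core and the windows of Acsl1 and Acaa1b hold no match to any of the 3 patterns. Of the 23 genes whose guide effect changed, 15 had windows in the table, 20 windows in all. None of the 20 held DR1, against 0.211% of the 13745 windows of tested genes. None held the half-site, against 10.9%, and 2 (10%) held the C/EBP core, against 7.43%. Both of these are overlapping windows of 1 gene, Dhrs3. A match is a description of letters, and its absence says nothing of sites farther away.

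At day 0, Pparg was the single gene to pass between P and EV (1 of 15803 genes, 0.00633%). At day 2, 1180 genes passed (7.47%), 930 higher (5.88%) and 250 lower (1.58%) in P. The change between the days, tested directly, passed for 23 genes (0.146%), all with a larger P minus EV difference at day 2, and for none in the other direction (0%). DESeq2 called 187 genes, 179 higher and 8 lower, and these held all 23. At an unadjusted p under 0.05 the change counted 881 genes higher (5.57%) and 376 lower (2.38%). The median SE of the change over all genes was 0.206, against 0.155 for the day 0 difference and 0.136 for the day 2 difference. For most of the 1180 genes of day 2, the P minus EV difference was thus not shown to differ from that of day 0.

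In the 23 genes the day 0 differences were centred near 0 and none passed, whereas all 23 passed at day 2. Their median P minus EV difference was 0.00305 (log2) at day 0, where 12 were positive and 11 negative, and 3.71 at day 2, where each was positive. Over all tested genes these medians were 0.00145 and -0.0208. None of the 23 passed between the days in EV cells (median 0.127), where 27.1% of tested genes did, and all 23 passed in P cells (median 3.65), where 32.7% did. The groups overlapped at day 0 for all 23, and among tested genes P lay wholly above EV in 0.165% and wholly below in 0.0696%. At day 2 every P library lay above every EV library for 20 of them, against 2.08% of tested genes (0.24% lay wholly below), and Prelp, Dhrs3 and Ptk2b overlapped. The change was positive in each of the 4 complete experiments for all 23, against 10.4% of tested genes. These genes were selected on the same day 2 and day 0 values, so these counts describe them and test nothing further.

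**Figure D1:**
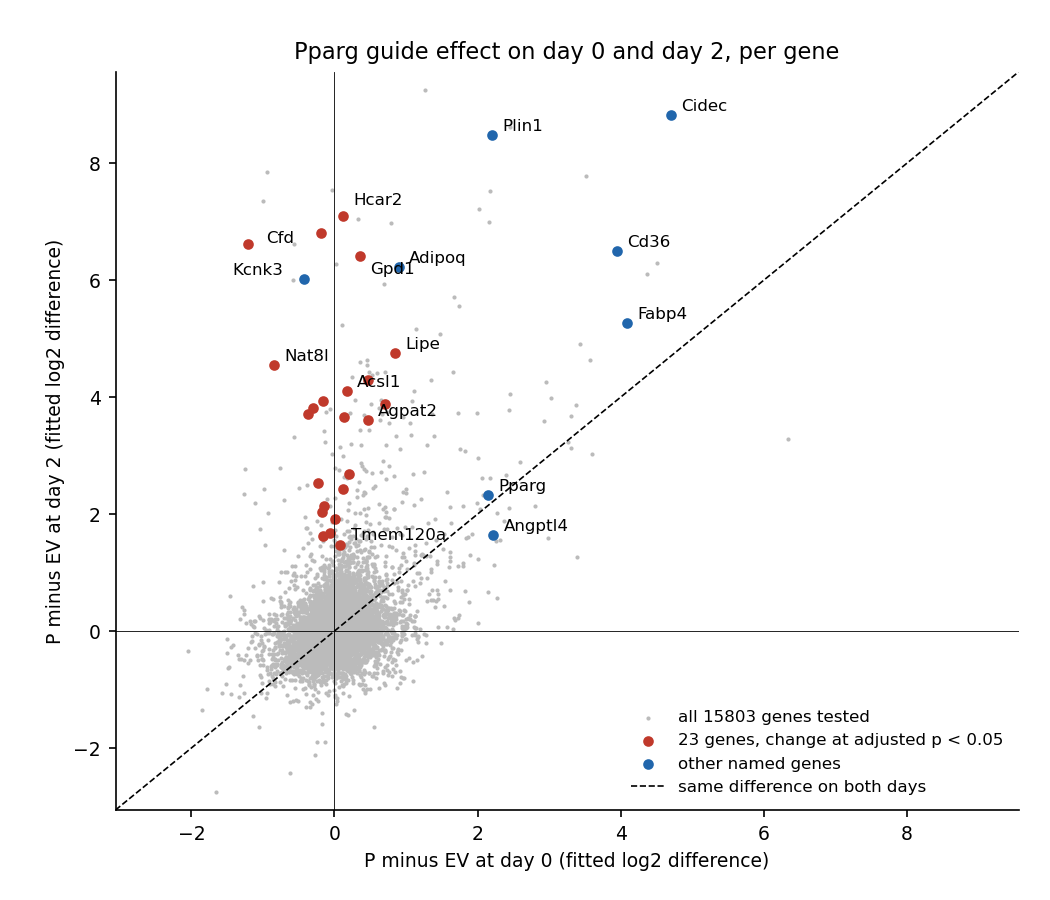
Each point is 1 of 15803 genes, with the fitted P minus EV difference (log2) at day 0 on the horizontal axis and at day 2 on the vertical axis, and the dashed line marks equal differences. The genes whose change passed (red) lie above the line, at 1.48 (Tmem120a) to 7.1 (Hcar2) at day 2, while Pparg lies close to the line at 2.14 and 2.33.

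Gpd1, Acsl1, Agpat2, Gpat3 and Dgat1, which passed, encode enzymes that act on the way to triglyceride, a grouping made after the calls were seen. Gpd1 (chromosome 15, 99717515 to 99725005, plus strand), which makes the glycerol 3-phosphate backbone, stood at 1.98, 2.33, 0.993, 1.25 and 1.19 CPM in EV day 0 and at 1.48, 0.965, 1.91, 1.02 and 6.35 CPM in P day 0. At day 2 it ran from 0.727 to 5.5 CPM in EV (median 3.06) and from 31.8 to 754 CPM in P (median 234). The day 0 libraries overlapped and the day 2 libraries were far apart. The change of the guide effect was 6.07 ± 0.711 (adjusted p = 0.00182). About 13% of its exonic bases are shared with Gm16537 on the opposite strand, and since the strand setting of the counting is not stated, reads of the pair could have been mixed.

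Acsl1 (chromosome 8, 46471037 to 46536051, plus strand), which activates long-chain fatty acids by joining them to coenzyme A, was already abundant in the pre-adipocytes. Its levels were 40.7, 42.3, 54, 43.1 and 51.7 CPM in EV day 0 and 41.3, 58.5, 43.7, 51.8 and 62.1 CPM in P day 0. At day 2 it lay between 59.9 and 79.4 CPM in EV (median 64.2) and between 303 and 3360 CPM in P (median 1130). P and EV were alike in range at day 0, and at day 2 the lowest P library was 3.82 times the highest EV library. The change was 3.93 ± 0.548 (adjusted p = 0.00678).

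Agpat2, which adds the second fatty acid to the glycerol backbone, stood at 25.4, 23.7, 25, 22.8 and 30.2 CPM in EV day 0 and at 28.6, 23.8, 36.8, 27.9 and 69.7 CPM in P day 0. It reached 118 to 925 CPM in P at day 2 against 19.2 to 29.6 CPM in EV, with a change of 3.14 ± 0.493 (adjusted p = 0.0184). Experiment 6 gave the highest of the day 0 P values. Gpat3, which adds the first fatty acid, ran from 38.3 to 221 CPM in P and from 4.35 to 15.6 CPM in EV at day 2, and its change was 3.18 ± 0.598 (adjusted p = 0.0435). The gene shares 37.4% of its exonic bases with 4930458D05Rik and Gm42987, so its counts are uncertain. Dgat1, which catalyses the last step to triglyceride, stood at 15.9 to 30.1 CPM in EV and 34.2 to 210 CPM in P at day 2, with a change of 1.91 ± 0.371 (adjusted p = 0.0499). Its partner Dgat2 had a change of 2.29 ± 0.56 that did not pass with the experiment as block (unadjusted p = 0.000725). With a block for each experiment and day Dgat2 passed (2.14 ± 0.454, adjusted p = 0.0467).

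Among the genes that break triglyceride down, Lipe and Mgll passed with the experiment as block and Pnpla2 did not. Lipe, hormone-sensitive lipase, stood at 8.59, 8.21, 5.56, 5.15 and 5.6 CPM in EV day 0 and at 9.52, 9.55, 8.68, 6.04 and 36.3 CPM in P day 0. At day 2 it ran from 7.9 to 16.7 CPM in EV (median 9.72) and from 94.9 to 825 CPM in P (median 271). One day 0 P library, from experiment 6, stood above the rest, and at day 2 the groups were separate. The change was 3.9 ± 0.62 (adjusted p = 0.0184), and 15.6% of the exonic bases are shared with 4732471J01Rik on the opposite strand. Mgll, monoglyceride lipase, changed by 2.29 ± 0.444 (adjusted p = 0.0499). Pnpla2, adipose triglyceride lipase, had a change of 2.51 ± 0.579 (adjusted p = 0.109). With a block for each experiment and day it passed (2.57 ± 0.497, adjusted p = 0.0379).

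Hcar2, a receptor for β-hydroxybutyrate and niacin that restrains lipolysis, was almost silent outside P day 2. It had at most 2 counts in any EV day 0 library, 3 in any P day 0 library and 1 in any EV day 2 library, against 4 to 203 counts in the P day 2 libraries (0.445 to 8.28 CPM). The fitted change of 6.98 ± 1.16 (adjusted p = 0.0232) rests on those few counts, so its size depends on the model and only the direction can be read. Acer2, a ceramidase of the Golgi, ran from 1.56 to 15.9 CPM in P and from 0.0908 to 0.432 CPM in EV at day 2, with a change of 3.82 ± 0.716 (adjusted p = 0.0435).

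Acaa1b (chromosome 9, 119148023 to 119157093, minus strand), a peroxisomal thiolase that ends each round of peroxisomal β-oxidation, varied little outside P day 2. Its levels were 3.2, 3.37, 2.18, 2.43 and 4.1 CPM in EV day 0 and 4.01, 2.03, 2.87, 3.62 and 4.3 CPM in P day 0. At day 2 it ran from 2.63 to 4.19 CPM in EV (median 3.34) and from 15.1 to 140 CPM in P (median 33.2). EV levels of both days and P levels of day 0 fall in 1 narrow band, and P day 2 lies above it. The change was 3.52 ± 0.434 (adjusted p = 0.00182). The close paralog Acaa1a had a change of 0.812 ± 0.189 that did not pass with the experiment as block. With a block for each experiment and day Acaa1a passed (0.797 ± 0.153, adjusted p = 0.0357). Reads shared by the near-identical copies could be split between them, since the handling of such reads is not stated, and 11.4% of the exonic bases of Acaa1b are shared with Dlec1.

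Secreted and signalling genes also passed. Cfd, the fat cell protease adipsin, had at most 8, 19 and 6 counts in the libraries of EV day 0, P day 0 and EV day 2, and reached 0.556 to 29.4 CPM in P day 2, with a fitted change of 7 ± 1.24 (adjusted p = 0.0352) that rests on those few counts. Adipor2, an adiponectin receptor, was expressed throughout, at 69.4 to 85.1 CPM on day 0 and 55.4 to 86.3 CPM in EV day 2, and rose to 178 to 905 CPM in P day 2, with a change of 2.31 ± 0.419 (adjusted p = 0.038). Sort1, sortilin, a sorting receptor of the vesicles that carry the glucose transporter GLUT4, went from 1.36 to 4.37 CPM on day 0 to 20.6 to 198 CPM in P day 2, against 2.38 to 7.97 CPM in EV, a change of 4.08 ± 0.682 (adjusted p = 0.0232). Sh2b2, an adaptor of the insulin receptor that was named after its values were seen, changed by 2.76 ± 0.492 (adjusted p = 0.0352).

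The other genes that passed have varied or less settled roles in fat cells. Nat8l, which makes N-acetylaspartate, changed by 5.39 ± 0.966 (adjusted p = 0.0352), with 0.843 to 20.3 CPM in P day 2 and at most 0.341 CPM in any library of the other 3 groups. Fam213a, a peroxiredoxin-like protein, changed by 4.11 ± 0.688 (adjusted p = 0.0232), and Rgcc, a regulator of the cell cycle, by 4.09 ± 0.781 (adjusted p = 0.0477). Prelp, Arxes2, Dhrs3, Tmem120a and Ptk2b also passed, were named after their values were seen, and changed by 1.4 (Tmem120a) to 2.48 (Arxes2).

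**Figure D2:**
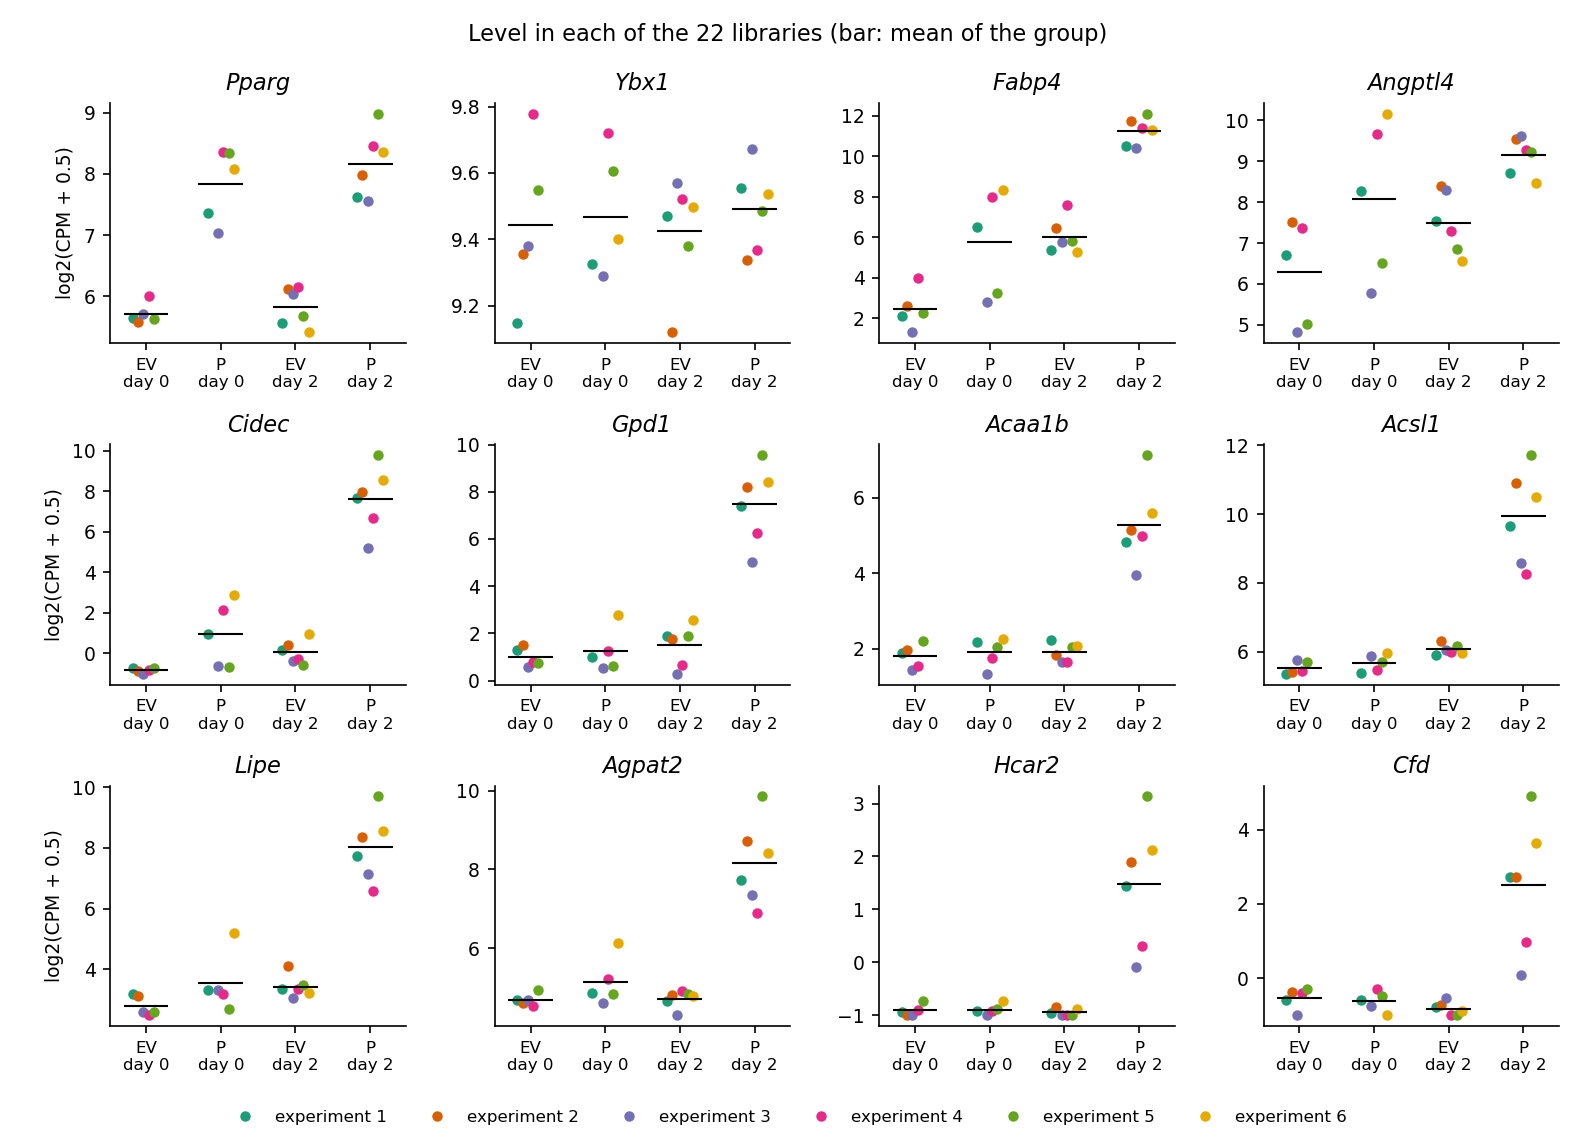
Each point is 1 of 22 libraries, coloured by experiment, with log2(CPM + 0.5) on the vertical axis and the 4 groups side by side, and each bar is the mean of the group. Gpd1, Acaa1b, Acsl1, Lipe, Agpat2, Hcar2 and Cfd have their highest group mean in P day 2. The P day 0 library of experiment 6 is above the other P day 0 libraries for Gpd1 (6.35 CPM), Lipe (36.3 CPM) and Agpat2 (69.7 CPM). Fabp4, Angptl4 and Cidec are already high in the P day 0 libraries of experiments 1, 4 and 6. Angptl4 is also higher in the EV day 0 libraries of experiments 1, 2 and 4 than in those of experiments 3 and 5.

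The experiments differed in the size of the day 2 response. Among the P day 2 libraries, experiment 5 held the highest level of 22 of the 23 genes, and experiment 3 (16 genes) or 4 (7 genes) the lowest. Gpd1 changed by 4.75 to 7.82 across the 4 complete experiments (mean 5.89 ± 1.36, SD, n = 4, log2 of CPM + 0.5), Acsl1 by 2.24 to 5.55 and Acaa1b by 2.31 to 5.24. Pparg itself was highest in experiment 5 among the P day 2 libraries (507 CPM) and lowest in experiment 3 (187 CPM), and its part in the spread was not tested.

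**Figure D3:**
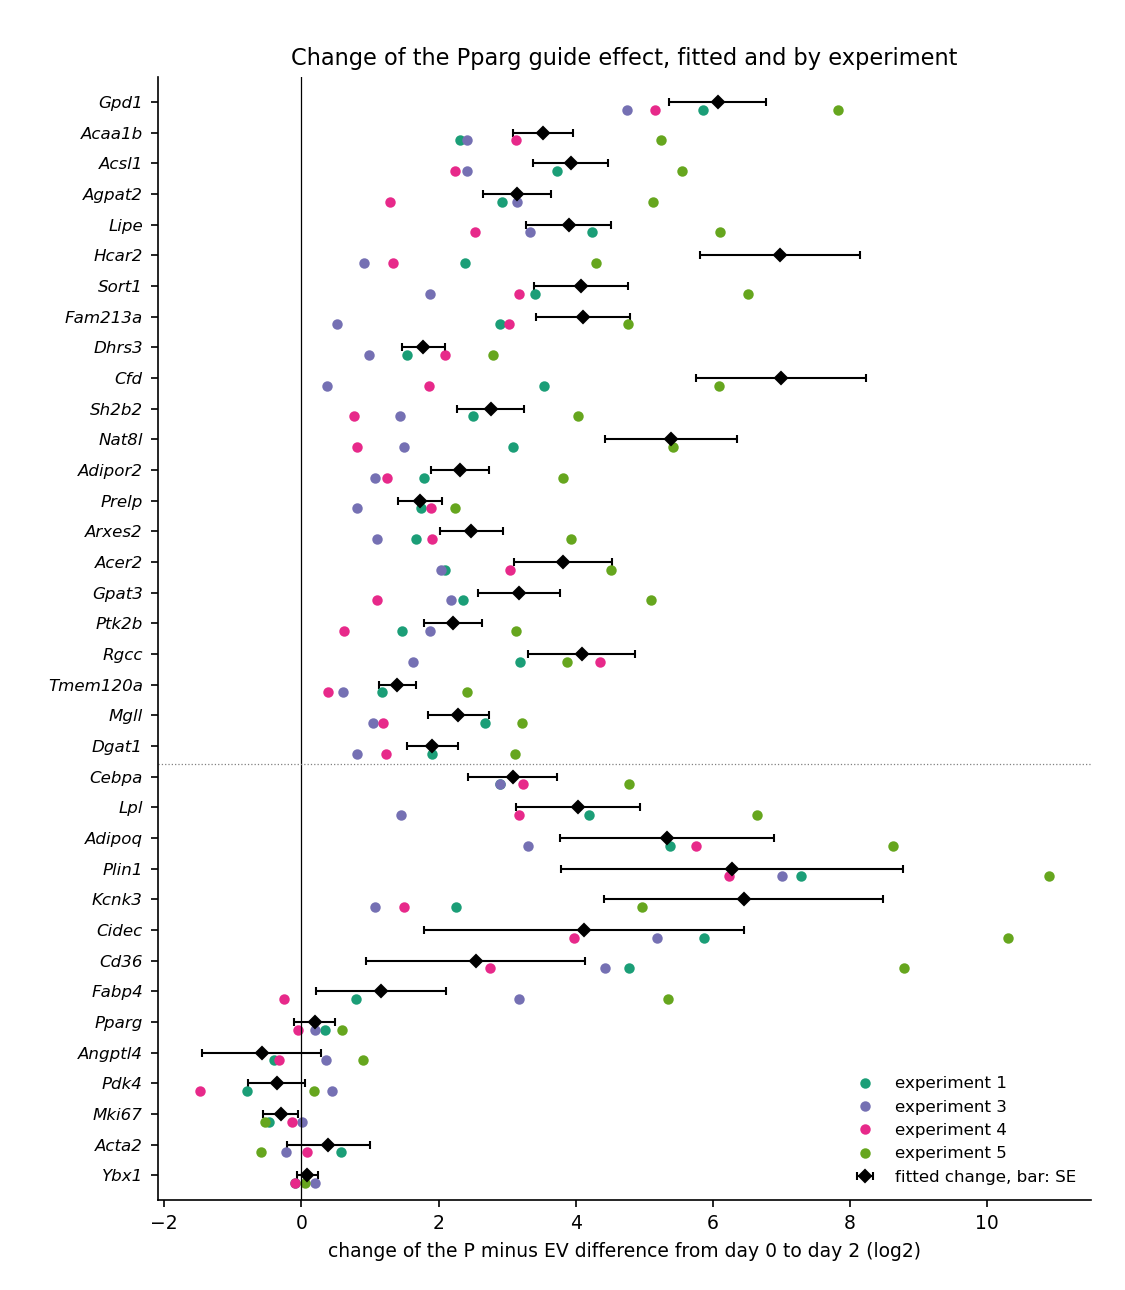
The change of the P minus EV difference from day 0 to day 2 is shown on the horizontal axis (log2) for 22 genes that passed, above the dotted line, and 14 other named genes. Diamonds with bars are the fitted change ± SE and circles the 4 complete experiments (log2 of CPM + 0.5), which lie below the fitted value for scarce genes such as Hcar2 and Cfd.

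Several classical markers of the fat cell did not pass, and some of them were already higher with the guide at day 0 in some experiments. Fabp4, the fatty acid binding protein of fat cells, stood at 3.83, 5.52, 1.99, 15.2 and 4.36 CPM in EV day 0 (experiments 1 to 5). In P day 0 it stood at 89.4, 6.56, 258, 8.93 and 320 CPM in experiments 1, 3, 4, 5 and 6. At day 2 it ran from 37.7 to 195 CPM in EV (median 54.4) and from 1370 to 4430 CPM in P (median 2620). The P day 0 libraries of experiments 1, 4 and 6 were high and those of experiments 3 and 5 low. The day 0 difference of 4.09 ± 0.793 missed the threshold (adjusted p = 0.0962). The day 2 difference was 5.26 ± 0.683 and passed (adjusted p = 8.11e-05). The change of 1.16 ± 0.95 did not pass (adjusted p = 0.873, 95% interval -0.892 to 3.21). Within experiments it was 0.794 in experiment 1, 3.17 in experiment 3, -0.249 in experiment 4 and 5.35 in experiment 5. The fitted change was 0.566 without P day 0 replicate 4 (experiment 5) and 1.82 without P day 0 replicate 5 (experiment 6).

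The same 3 day 0 libraries were high for Cidec, Cd36 and Angptl4. Cidec, a lipid droplet protein, stood at 1.41, 3.98 and 6.87 CPM in P day 0 of experiments 1, 4 and 6 and at 0.145 and 0.128 CPM in experiments 3 and 5, against at most 0.104 CPM in EV day 0. Its groups did not overlap at day 0, as for 0.165% of tested genes in that direction, and its day 0 difference of 4.7 ± 1.13 had an adjusted p of 0.254. That separation rests on few counts, with 3 in each P day 0 library of experiments 3 and 5 and at most 5 in EV day 0. Cd36, the fatty acid translocase, stood at 1.33, 3.32 and 6.35 CPM in experiments 1, 4 and 6 and at 0.675 and 0 CPM in experiments 3 and 5. Angptl4, a secreted inhibitor of lipoprotein lipase, stood at 307, 817 and 1150 CPM in those 3 libraries and at 54.2 and 90.1 CPM in experiments 3 and 5. Its EV day 0 levels also differed by experiment, at 104, 181, 27.8, 164 and 31.9 CPM in experiments 1 to 5. Within experiments 1, 3, 4 and 5 its day 0 P minus EV difference was 1.56, 0.951, 2.31 and 1.48 (log2 of CPM + 0.5). Experiments 1 and 5 were thus alike in that difference. Pparg did not follow this order, with 164, 328 and 271 CPM in experiments 1, 4 and 6 and 130 and 324 CPM in experiments 3 and 5.

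By day 2 Cidec (35.8 to 889 CPM in P, 0.174 to 1.45 CPM in EV) and Cd36 (116 to 703 CPM in P, 1.08 to 12.1 CPM in EV) were separate between the groups. Their changes were 4.12 ± 2.33 (adjusted p = 0.726) and 2.54 ± 1.6 (adjusted p = 0.784). Cd36 changed by 2.75 to 8.79 within the 4 complete experiments, above the fitted value, and the source of this gap was not tested. The fitted change of Cd36 was 1.54 without EV day 0 replicate 1 and 3.04 without P day 0 replicate 5 (experiment 6). Angptl4 had a day 2 difference of 1.64 ± 0.564 (adjusted p = 0.0908), and its change of -0.582 ± 0.867 had an interval of -2.46 to 1.29. Pdk4, a kinase that holds back pyruvate dehydrogenase, had a change of -0.362 ± 0.418 (adjusted p = 0.958).

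Adipoq, Plin1, Lpl, Cebpa and Kcnk3 had fitted changes of 3.08 to 6.45 that did not pass with the experiment as block. With a block for each experiment and day, Cebpa (3.44 ± 0.396, adjusted p = 0.00229) and Lpl (3.95 ± 0.816, adjusted p = 0.0432) passed. Cebpa passed in 6 of 39 alternative fits, Lpl in 5, and Adipoq and Plin1 in 2 each. Kcnk3 passed in 2 of 38. Adipoq, which encodes adiponectin, ran from 0.0425 to 0.871 CPM over both day 0 groups, from 0.935 to 7.6 CPM in EV day 2 and from 27.8 to 1020 CPM in P day 2, with a change of 5.33 ± 1.56 (adjusted p = 0.219). Plin1, the coat protein of fat cell lipid droplets, reached 83 to 693 CPM in P day 2 against 0.0868 to 1.83 CPM in EV, with a change of 6.28 ± 2.5 (adjusted p = 0.491). Lpl, lipoprotein lipase, had a change of 4.03 ± 0.903 (adjusted p = 0.101). Cebpa, which encodes C/EBPα, went from 1.02 to 13.8 CPM on day 0 to 12.7 to 77.2 CPM in P day 2, a change of 3.08 ± 0.648 (adjusted p = 0.0863). Kcnk3, a potassium channel, had at most 1, 1 and 4 counts in the libraries of the other 3 groups and 0.556 to 15.2 CPM in P day 2, with a change of 6.45 ± 2.03 (adjusted p = 0.275). With 1 library left out the change ran from 3.86 (without EV day 0 replicate 4) to 5.8 for Adipoq and from 5.32 to 8.01 (without P day 0 replicate 5) for Plin1. The change was positive in all 4 complete experiments for each of these 5 genes.

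By gene list, the fat cell identity list had 24 tested members, of which 6 passed higher (Gpd1, Acsl1, Agpat2, Lipe, Adipor2 and Cfd) and 17 were higher at an unadjusted p under 0.05, beside 0.146% and 5.57% of all genes. All 24 had a positive change, with a median of 3.91 against -0.0219 over all genes, and the median P minus EV difference went from 0.462 at day 0 to 4.96 at day 2. The summed level of the list ran from 316 to 853 CPM in P day 0 and from 2940 to 16900 CPM in P day 2. In EV it ran from 300 to 339 CPM and from 374 to 531 CPM. Of 20 lipolysis and adrenergic control genes, 4 passed higher (Gpd1, Lipe, Hcar2 and Mgll) and none lower, with a median change of 2.04. Gpd1 is counted in this list although it makes the glycerol 3-phosphate backbone of triglyceride. Of 21 fatty acid and triglyceride synthesis genes, 3 passed higher (Agpat2, Gpat3 and Dgat1) and none lower, with a median of 0.588. Fasn, which makes palmitate, had a change of 0.597 ± 0.274 and Scd1, a desaturase, of 1.23 ± 0.481, and neither passed.

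Among 23 adipogenic transcription factors none passed in either direction with the experiment as block. At an unadjusted p under 0.05, 5 were higher (21.7%, beside 5.57% of all genes) and none lower: Cebpa (3.08), Nr1h3 (2.24), Srebf1 (1), Cebpb (0.873) and Nr1h2 (0.319). Their median change was 0.205. Rxra, the usual partner of PPARG, had a change of 0.431 ± 0.208. Of 20 inhibitors of fat cell formation none passed. Gli1, a Hedgehog effector, was the 1 gene of the 20 lower at an unadjusted p under 0.05 (-1.21 ± 0.502), beside 2.38% of all genes.

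In the 5 lists of mitochondrial and peroxisomal energy use most genes had a positive change, as did 7205 of all 15803 tested genes. With the experiment as block, Acaa1b was the single gene that passed, and the calls below are from that fit. With a block for each experiment and day, other members also passed. They included Mpc2, Pex13, Cox5b, Aldh6a1, Hadhb, Pex16 and Hadha, at adjusted p of 0.0183 to 0.0467. All 48 tested nuclear-encoded subunits of oxidative phosphorylation had a positive change, none passed, and 40 had an unadjusted p under 0.05, beside 5.57% of all genes. Their median difference was -0.000618 at day 0 and 0.43 at day 2. Cycs, cytochrome c, had the largest change (1.21 ± 0.291), and Cox5b (0.773 ± 0.161) and Uqcrfs1 (0.792 ± 0.187), subunits of complexes IV and III, followed. Within experiments the median change of the 48 was 0.282 in experiment 1, 0.126 in experiment 3, 0.394 in experiment 4 and 1.17 in experiment 5.

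Of 28 fatty acid oxidation genes, 1 passed (Acaa1b), beside 0.146% of all genes, 27 were positive and 1 negative, and the median change was 0.778. At an unadjusted p under 0.05, 20 of the 28 were higher (71.4%, beside 5.57% of all genes) and none lower. Hadha (0.879 ± 0.217) and Hadhb (1.14 ± 0.296), the 2 subunits of the mitochondrial trifunctional protein, had changes close to each other, while Cpt1a, the gate for fatty acids into the mitochondrion, had a change of 0.0133 ± 0.188. Of 27 genes of pyruvate metabolism and the TCA cycle none passed, 26 were positive and 1 negative, and 21 were higher at an unadjusted p under 0.05, with a median of 0.538, among them Mpc2, a subunit of the mitochondrial pyruvate carrier (1.06 ± 0.215). Of 28 peroxisome genes, 1 passed (Acaa1b), 26 were positive and 2 negative, and 16 were higher at an unadjusted p under 0.05 (median 0.55), among them the import genes Pex13 (0.926 ± 0.195) and Pex16 (1.22 ± 0.276). Of 24 genes of branched-chain amino acid breakdown none passed, 23 were positive and 1 negative, and 10 were higher at an unadjusted p under 0.05, with a median of 0.376. The same shares of all genes, 0.146% and 5.57%, stand beside each of these lists. In the order given, the median change within experiment 5 was 1.68, 1.15, 1.27 and 0.897, the highest of the complete experiments for each list. In experiment 3 it was 0.306, 0.209, 0.334 and 0.0842.

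**Figure D4:**
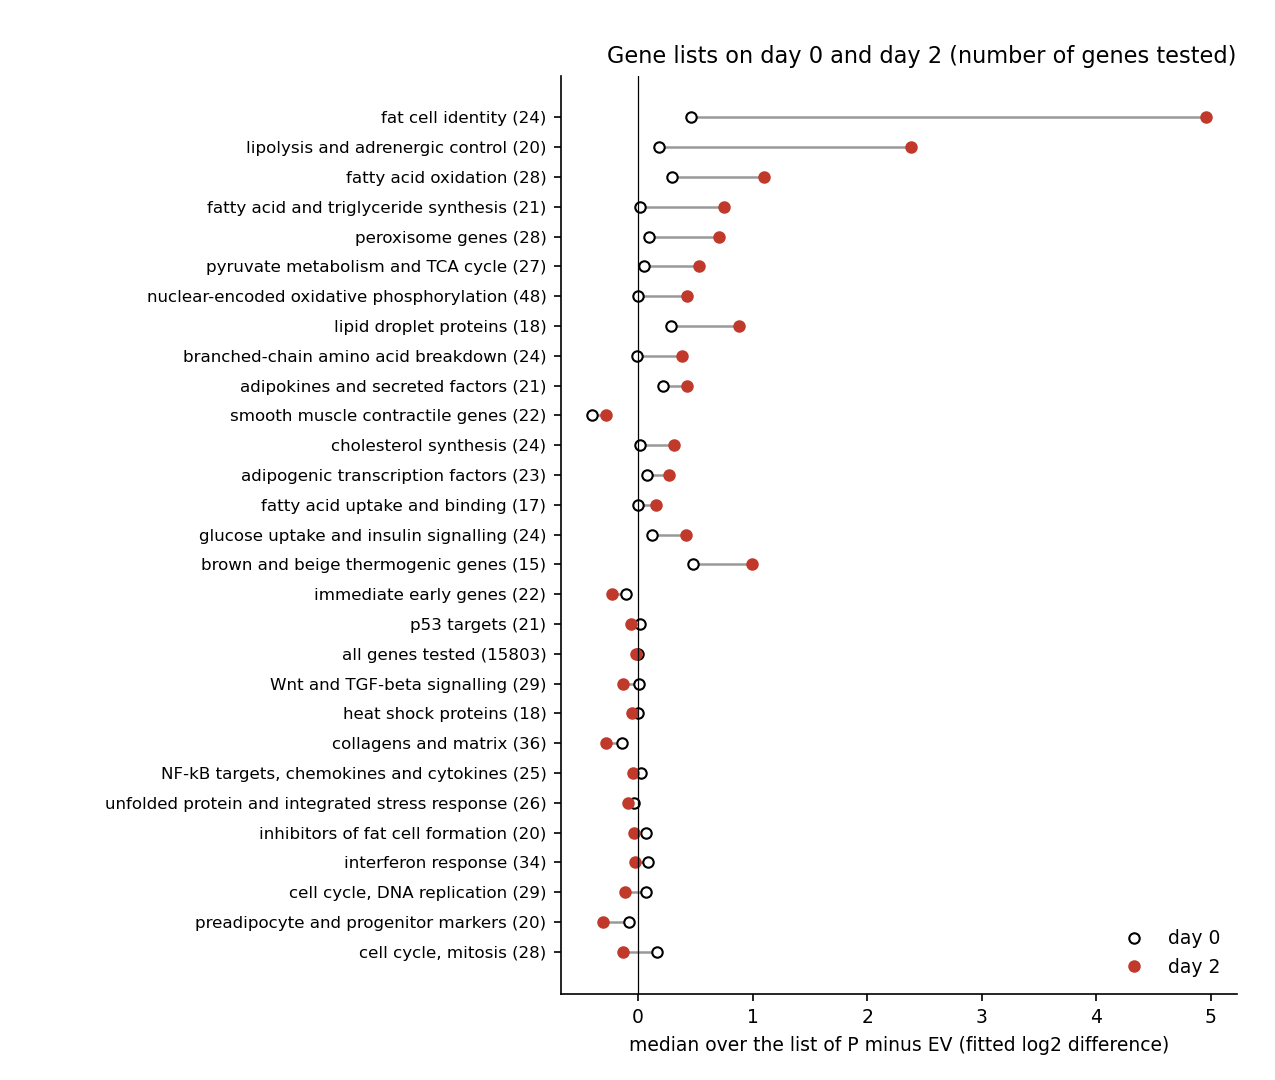
Each row is a gene list of at least 15 tested genes, with the number in brackets, and the horizontal axis is the median over the list of the fitted P minus EV difference (log2) at day 0 (open circles) and day 2 (red). The fat cell identity list moves from 0.462 to 4.96, the oxidative phosphorylation list from -0.000618 to 0.43, and the mitosis list from 0.167 to -0.129.

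Of 30 listed genes that set brown and beige fat cells apart, 15 were tested and none passed, with 9 positive and 6 negative and a median change of 0.0868. At an unadjusted p under 0.05, 4 of the 15 were higher (26.7%, beside 5.57% of all genes) and none lower. They were Kcnk3 (6.45 ± 2.03), Otop1, a proton channel (3.89 ± 0.976), Ucp2, a relative of the uncoupling protein of thermogenic fat (2.99 ± 0.988), and Ppargc1b, a coactivator (2.96 ± 0.679). Ucp1, the uncoupling protein of thermogenic fat, had too few counts to be tested, with at most 0.454 CPM in any library and at most 0.0766 CPM in P day 2. Cidea was not tested either and reached at most 0.204 CPM. Ppargc1a, a coactivator of mitochondrial genes, ran from 0 to 7.08 CPM in EV day 2 and from 0.251 to 13.3 CPM in P day 2. Its change of 0.0482 ± 0.789 (adjusted p = 0.998) took either sign depending on the libraries and scaling used.

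No cell division gene of the lists passed. All 28 mitosis genes had a negative change (median -0.296), as did 8598 of all 15803 tested genes (median -0.0219), and 1 of the 28 (Ect2, -0.525 ± 0.231) had an unadjusted p under 0.05, beside 2.38% of all genes lower. Their median difference was 0.167 at day 0 and -0.129 at day 2, and Mki67, a marker of cycling cells, had a change of -0.302 ± 0.252 (adjusted p = 0.877). The 28 genes were negative together in experiment 1 (median -0.466) and 25 of 28 were negative in experiment 5 (median -0.296). In experiment 3, 9 of 28 were positive, and in experiment 4, 8 of 28. Of 29 DNA replication genes 26 were negative and 3 positive (median -0.18), and 2 were lower at an unadjusted p under 0.05.

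Of 20 preadipocyte and progenitor markers 15 were negative (median -0.268), none passed, and Cd34 (-0.91 ± 0.428) and Eng (-0.368 ± 0.172) had unadjusted p under 0.05, beside 2.38% of all genes lower. Pdgfra, a receptor of the progenitors, had a change of -0.363 ± 0.311. The summed level of the list ran from 6860 to 10600 CPM in P day 2 and from 8220 to 12900 CPM in EV day 2, so the progenitor markers remained abundant. Acta2, smooth muscle actin, ran from 379 to 3710 CPM in P day 2 and had a change of 0.394 ± 0.609, whose sign turned in some settings. Macrophage markers summed to 8.79 to 18.1 CPM over the 22 libraries and epithelial markers to 1.53 to 12 CPM. Endothelial markers summed to 4.49 to 36 CPM and skeletal muscle markers to 5.27 to 40.9 CPM. Cartilage and bone markers reached 274 to 685 CPM, and smooth muscle contractile genes 6040 to 23700 CPM. None of the tested members of these lists passed.

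The count of 23 depends on single libraries. It was 7 without EV day 0 replicate 3, 119 without P day 2 replicate 3, the 2 libraries with the most counts in few genes, and between 3 and 119 with any 1 library left out. It was 10 without the experiment block, 115 with a block for each experiment and day, which held all 23, and 0 in the 4 complete experiments alone, where 875 genes had an unadjusted p under 0.05. Gpd1, Acsl1 and Acaa1b passed in each of 22 fits that left out 1 library.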

How the data were processed

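RNA was sequenced with a stranded total RNA kit after ribosomal RNA removal, per the labels. The authors deposited raw counts per Ensembl gene for 51 libraries, with no scaling. Per the submitters' processing notes, the tools were edgeR 3.22.0, featureCounts 1.5.2 and the aligner STAR 2.5.3a, on mm10 (GRCm38). Annotation, strand setting and multi-mapping reads are not given in the sources used here, so overlapping genes and close copies are uncertain. GENCODE M21 gave symbols and positions for 53620 of 53801 genes, and RefSeq (GRCm38.p6) the sequences.

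The 22 libraries of 4 groups were fitted with edgeR 4.0.16 (R 4.3.3, limma 3.58.1): filterByExpr (15803 genes), TMM scaling, quasi-likelihood F-tests (two-sided), the experiment number of the labels as an additive block, 13 residual degrees of freedom. Calls used a Benjamini-Hochberg adjusted p under 0.05. SEs were back-calculated from the F statistic, and 95% intervals use 13 degrees of freedom. Levels are CPM. Values within experiments are log2(CPM + 0.5). No 2 columns were identical (0). The labels give the experiment of each library. Libraries of 1 experiment in different groups deviated together (median r of 0.453 across genes over 30 pairs, against -0.089 over 151 pairs of different experiments), and r was over 0.1 in 28 of the 30. The exceptions were EV day 0 replicate 2 with the EV (-0.046) and P (-0.0725) libraries of day 2 in experiment 2. Within 1 experiment, EV and P libraries of the same day had r of 0.445 to 0.846, and libraries of different days -0.0725 to 0.643. The additive block does not model deviations shared by 1 experiment and day. The pairing is taken from the labels. P day 0 replicates 1 to 5 come from experiments 1, 3, 4, 5 and 6. The labels do not call the experiments separate cultures, so p-values measure the spread between these libraries.

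Named genes were Pparg, Ybx1, the called genes with a mean of at least 1 CPM that had the 12 largest changes or 8 smallest p in each direction, up to 4 called members of each of 35 gene lists, and 16 markers. The 6 called genes outside this rule are named as such, and 1 called gene is not reported here. The genes and lists were chosen with earlier results of these data known. Alternatives were other blocks, samples, scalings and filters, DESeq2 1.42.0, and leaving out each library or experiment. The newer quasi-likelihood method of edgeR was added after seeing the data. The test was also run on counts simulated from the fitted model, and the outcome is not given here. Those counts held no deviation shared by 1 experiment and day, so that run does not cover it.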

Additional observations from a re-analysis of the deposited data

Results flagged for a closer look

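Chance flags about 1 in 20 groups that can be flagged, and 6 of 156 groups of a named gene (log2 of CPM + 0.5) held a library far from the others. The 156 include groups with every library under 1 CPM, which could not be flagged, so 6 of 156 cannot be set against 1 in 20. EV day 2 replicate 4 (experiment 4) gave 3 of the 6. There Rgcc stood at 0.327 CPM against 1.18 to 1.73 CPM in the other EV day 2 libraries, Prelp at 13.2 CPM against 42.3 to 67.8 CPM, and Gpat3 at 15.6 CPM against 4.35 to 6.27 CPM. P day 0 replicate 5 (experiment 6) held Lipe at 36.3 CPM against 6.04 to 9.55 CPM, and Plin1 at 3.28 CPM against 0 to 0.148 CPM. Arxes2 stood at 3.33 CPM in P day 0 replicate 2 (experiment 3) against 1.68 to 2.04 CPM.

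The guide effect differed between day 2 and day 0 by the test of the difference itself (edgeR, adjusted p of 0.00182 to 0.0499) in 22 named genes. The changes (log2) were 7 for Cfd, 6.98 for Hcar2, 6.07 for Gpd1, 5.39 for Nat8l, 4.11 for Fam213a, 4.09 for Rgcc, 4.08 for Sort1, 3.93 for Acsl1, 3.9 for Lipe, 3.82 for Acer2 and 3.52 for Acaa1b. They were 3.18 for Gpat3, 3.14 for Agpat2, 2.76 for Sh2b2, 2.48 for Arxes2, 2.31 for Adipor2, 2.29 for Mgll, 2.21 for Ptk2b, 1.91 for Dgat1, 1.78 for Dhrs3, 1.73 for Prelp and 1.4 for Tmem120a. Each was positive in the 4 complete experiments.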

How the results depend on the processing

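Against 23 genes, the count was 10 with no replicate block, 115 (104 higher, 11 lower) with experiment and day together as the replicate block, 16 with all 51 libraries, 0 in the experiments with all 4 groups (875 at an unadjusted p under 0.05), 187 by DESeq2 with the block (179 higher, 8 lower), 20 with RLE, 14 with upper-quartile and 18 with total count scaling, 517 with no filter (472 higher, 45 lower, of 40636 genes), 13 with a stricter filter and 25 with the newer quasi-likelihood method. The block by experiment and day, DESeq2 and the fit with no filter each held all 23. Of the 517 genes called with no filter, 463 were among the 15803 genes and 54 were outside them. Leaving out 1 library gave 3 to 119 and 1 experiment 1 to 19. It was 3 without EV day 0 replicate 1 or 4, 4 without P day 0 replicate 1, 5 without EV day 2 replicate 5, 6 without EV day 2 replicate 2, P day 2 replicate 2 or 6, or P day 0 replicate 4, 7 without EV day 0 replicate 2 or 3 or EV day 2 replicate 6, 8 without P day 0 replicate 5, 9 without P day 2 replicate 1, 12 without P day 0 replicate 2, 13 without EV day 2 replicate 1, 57 without P day 2 replicate 5, 59 without P day 2 replicate 4 and 119 without P day 2 replicate 3. It was 1 without experiment 1, 4 without experiment 2, 7 without experiment 3 or 6, and 15 without experiment 5. The cause was not tested. Gpd1, Acsl1 and Acaa1b passed in 22 of 22 fits without 1 library, Lipe in 18, Agpat2 in 17 and the other 17 named genes in 4 to 12. None of the 23 reversed in any setting run, and Hcar2 had too few counts to be tested in 7 settings.

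Over the named genes, 994 of 1474 values kept their direction and side of the threshold, 429 no longer passed, 22 newly passed and 29 reversed, all 29 in genes that did not pass. All 429 lost calls lie in the 23 genes that passed, since only these can lose a call. The 1474 also hold the values of named genes that never passed, so the share lost among the 23 genes is larger than 429 of 1474. Ppargc1a was -0.0234 with all 51 libraries, -0.0699 with total count scaling, -0.00353 with no filter, -0.12 with the newer method, and -0.801 to 0.589 with 1 library left out. It was -0.0991, -0.0429, -0.22, -0.0456 and -0.109 without experiments 1, 3, 4, 5 and 6 in turn. Acta2 was -0.143 with no replicate block, -0.161 with experiment and day together as the block, -0.0876 in the complete experiments, -0.136 without experiment 2, and -0.238 to 0.675 with 1 library left out, negative without EV day 0 replicate 2. Angptl4 was 0.017 with experiment and day as the block, and -1.02 to 0.000139 with 1 library left out, positive without P day 0 replicate 5. Counts of list members past an unadjusted p under 0.05 stayed within 1.5 times in 384 of 468 cases. Depth limits genes such as Hcar2 and Kcnk3, which had at most 4 counts in any library outside P day 2.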
